A study of Mus musculus with 6 samples.

Results

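Dimethylation of histone H3 at lysine 79 (H3K79me2) was compared, gene by gene, between mouse blood progenitors transformed with the D546R form of the fusion protein MLL-AF9 and progenitors carrying the unaltered fusion (WT). The members were all genes of the deposited count table whose normalised H3K79me2 count averaged at least 100 over the 3 libraries of this mark, which were 8905 of 24012 genes. Each side of the comparison was 1 library of chromatin immunoprecipitation followed by sequencing (ChIP-seq), taken from primary bone marrow progenitors that had received the fusion by retrovirus and precipitated with the same anti-H3K79me2 antibody (Abcam ab3594). A library from cells with a neighbouring exchange, D544R, was made the same way, and the study also profiled trimethylation (H3K79me3) in the same 3 genotypes, 6 libraries in all. All groups therefore carry the fusion and none lacks it. The sources used here state neither the promoter that drives it nor how many animals or cultures went into a library.

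H3K79 methylation is laid down by the enzyme DOT1L, mostly over the first part of the body of transcribed genes, and silent genes carry little of it. AF9 is a partner of DOT1L, and its C-terminal end is the part that MLL-AF9 keeps, so the fusion brings DOT1L to the genes that MLL binds. In MLL-rearranged leukemia such genes, led by the later HoxA genes and Meis1, carry broad H3K79 methylation and keep the cells in a self-renewing state. D546R exchanges an aspartate of the fusion for arginine. The comparison addresses how far dimethylation depends on that residue, and the series title places it in the frame of how strongly DOT1L is recruited.

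With 1 library on each side there was no replicate and no test, so a difference between these libraries cannot be told apart from a difference between cultures or preparations. A value is a log2 ratio of normalised counts, D546R over WT, with a prior count of 0.5. Its bracketed range is a 95% interval for counting error, after counts were divided by the estimated number of reads per independent DNA fragment. A gene is called lower or higher here when the ratio was at least 2-fold and the interval of the single reads excluded no change. The totals were 5993741 counts in WT, 4287873 in D544R and 3558329 in D546R, and 138, 164 and 795 regions had no count. A region ran over the whole gene with 2 kb added, and for genes on the minus strand that addition lay past the gene's end and not before its start.

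The labelled cell type was checked by density, the normalised counts per kb divided by those of 1459 olfactory and vomeronasal receptor genes, which are silent in blood cells and set the value 1. Of 9 progenitor markers 7 were at or above 2 in WT and 7 in D546R, among them Ptprc (8.62 and 11.9), Spi1 (7.42 and 12.7) and Myb (7.21 and 7.14). Cd34 and Flt3 were near the silent level, at 1.27 and 1.10 in WT. Of the 6 stromal, 3 neural and 4 lymphoid markers none reached 2 in either library, and the endothelial marker Pecam1 did so in D546R (2.38). Of 4 erythroid markers 1 reached 2 in WT and 0 in D546R. It was Hba-a1, at 2.00 on a mean normalised count of 10.4. No marker was at 0. Of 8 mature myeloid markers 4 were at or above 2 in WT and 6 in D546R, and of 4 mast cell markers none and then all 4. In D546R the mast cell markers Cpa3, Fcer1a and Mcpt8 were only just past 2, at 2.24, 2.06 and 2.25. Fcer1a, Ms4a2 and Mcpt8 had mean normalised counts of 27.7, 69.8 and 20.1, below the minimum of 100. Several mature myeloid markers were also below it, such as S100a8 (22.2) and Lyz2 (60.8). The summed density of the mature myeloid markers was 1.94 in WT, 2.23 in D544R and 4.199 in D546R, that of the progenitor markers 4.63, 5.23 and 6.69, and that of the mast cell markers 1.51, 1.74 and 2.62. The progenitor markers did not move together. Kit (-0.11), Cd34 (-0.11), Cebpa (-0.51), Myb (-0.13) and Flt3 (-0.35) had D546R log2 ratios below 0. Ptprc (0.35), Spi1 (0.66), Runx1 (0.68) and Mpo (0.935) were above 0. The summed densities moved with the higher genes described further on, and their part in those results was not tested. Chil3 and Ltf are both in the mature myeloid sum and among those higher genes, so this movement partly repeats the same values. In a mixed culture more cells with the mark and more mark per cell cannot be told apart.

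In D546R 77 genes were at least 2-fold lower (0.865% of those tested) and 79 were at least 2-fold higher (0.887%). The same rule called 1 gene lower (0.0112%) and 3 higher (0.0337%) in D544R against the same WT library. With the pooled receptor genes as the reference, which adds 0.11 to every log2 ratio, the D546R counts were 50 lower and 179 higher, with silent genes of other tissues 70 and 111, and with total counts 100 and 59. The log2 ratios of the 8905 genes had a standard deviation of 0.40, against 0.21 in D544R, and the middle 50% lay between -0.17 and 0.33. The median was 0.07. The D544R ratios narrowed from class to class of mean count, while the D546R ratios were narrowest in the middle class. Among 5067 genes with a mean of 100 to 300 the standard deviations were 0.44 and 0.25, and among 2939 genes with 300 to 1000 they were 0.34 and 0.17. Among the 899 genes with a mean of 1000 or more they were 0.39 and 0.14. Both tails also differed in depth: 20 of the 77 lower genes had a mean of at least 1000 but only 1 of the 79 higher genes, and 73 of the higher genes had fewer than 300 counts in WT. The share of all tested genes under 300 WT counts was not taken, and a low WT count itself raises the ratio.

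**Figure D1:**
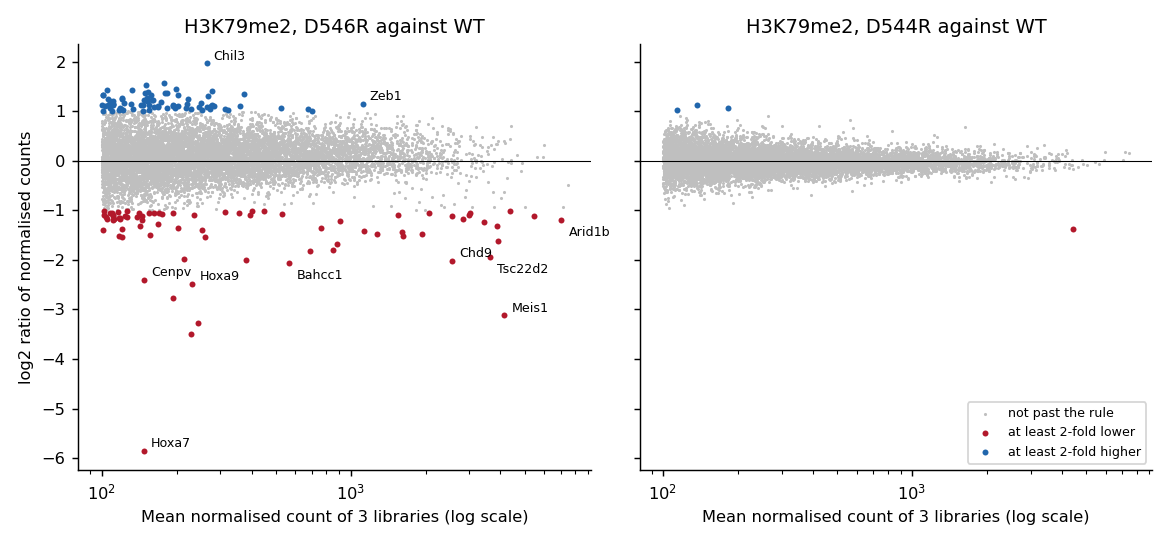
Log2 ratio of normalised H3K79me2 counts against the mean normalised count (log scale) for 8905 genes, D546R against WT on the left and D544R against WT on the right. Both panels share the WT library, and red and blue points are the genes past the 2-fold rule, 77 and 79 on the left and 1 and 3 on the right.

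The most strongly lower genes included the HoxA cluster and its partner genes. Hoxa7, a homeobox gene of the self-renewal programme (NM_010455, mm9 chr6:52163623-52168572), had normalised counts of 188.7 in WT, 252.0 in D544R and 2.6 in D546R. The D546R value rests on 2 reads, and the log2 ratio was -5.85 (-18.06 to -2.69). Hoxa9 (NM_001277238, chr6:52171096-52177369), which drives leukemic growth together with Meis1, had 260.0, 388.8 and 45.8 in the same order, and Hoxa10 (NM_001122950, chr6:52179196-52190853) had 236.9, 310.6 and 34.0. In all 3 genes D544R was the highest library and D546R the lowest. Hoxa3, whose region overlaps 5 others and so shares reads with them, stood at -2.01 (-2.83 to -1.29). Of the 11 HoxA genes 4 passed the count minimum, and all 4 were called lower, with a median of -2.63 against 0.07 for all genes. Earlier results on these data had already shown these genes to be low, so this is a description of the list.

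Outside the cluster, 9 of 31 listed MLL fusion targets were lower and none higher. The lower share was 0.865% among all tested genes and 2.22% among those with a mean of 1000 or more. The list median was -0.49, and 23 of 31 were below 0, against 42.4% of all tested genes. This list too was chosen with earlier results of these data known. Meis1 (NM_010789, chr11:18778431-18918972), the TALE homeobox cofactor of the HOX proteins, had 5475 normalised counts in WT, 6329 in D544R and 628.4 in D546R. Its log2 ratio was -3.12 (-3.43 to -2.83), which is 8.70-fold lower over 140.5 kb. Eya1 (NM_001252192, chr1:14157039-14300280), which encodes a phosphatase and transcriptional coactivator, had 1043, 1267 and 323.4, a ratio of -1.69 (-2.14 to -1.26). In both genes D544R lay somewhat above WT and D546R lay far below. Others of the 9 were Runx2 (-1.62), Mef2c (-1.43), Arid1b (-1.19), Zeb2 (-1.06) and Jmjd1c (-1.02). The list was not uniform. Runx1, which encodes a master regulator of blood formation, stood at 0.68 (0.53 to 0.83), Hmga2 and Cpeb2 at 0.59 each, and Myb at -0.13.

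Of the lists of chromatin regulators, several held 1 or 2 lower genes and others none, beside 0.865% of all tested genes and 2.22% of those with a mean of 1000 or more. Chd9 (NM_177224, chr8:93350734-93578407), a nucleosome remodeler, had 3757 normalised counts in WT, 2985 in D544R and 928.2 in D546R, a ratio of -2.02 (-2.27 to -1.77). The other 17 tested CHD, ISWI and related remodeler genes were not called, from Baz2b at -0.94 to Chd4 at 0.81, and the median of all 18 was 0.20. Of 19 BAF and PBAF genes 2 were lower, Arid1b with 8613, 8712 and 3769 normalised counts and Arid2 (-1.10, -1.30 to -0.91) with 3707, 3501 and 1727, while the related subunit gene Arid1a stood at -0.02. Nipbl, the loader of cohesin, had 6679, 6561 and 3061 and was the 1 of 13 cohesin and CTCF genes called, at -1.12 (-1.27 to -0.98), although the median of that list was 0.15. The elongation kinase gene Cdk13 (-1.32, -1.50 to -1.14) was likewise the 1 of 26 DOT1L and elongation complex genes, whose median was 0.22. WT and D544R were close for Arid1b, Arid2, Nipbl and Cdk13, with D544R ratios between -0.08 for Arid2 and 0.06 for Cdk13. Chd9 was lower in D544R too, at -0.33, near the 5th percentile of all D544R ratios (-0.34). Polycomb genes gave no call: 0 of 12 PRC1 and BCOR genes and 0 of 9 PRC2 genes passed the rule, and their medians were 0.01 and 0.07.

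Genes outside the fusion target list were also far lower. Tsc22d2 (NM_001081229, chr3:58217611-58270709), of the TSC22 leucine zipper family, was the densest tested gene of at least 50 kb in D544R. It had 4615 normalised counts in WT, 5042 in D544R and 1198 in D546R, a ratio of -1.94 (-2.17 to -1.73). Cenpv, a centromere protein gene, had 210.2, 194.4 and 39.3, a ratio of -2.40 (-3.88 to -1.25). Bahcc1, which encodes a chromatin protein with a BAH domain, had 566.0, 996.6 and 134.8, a ratio of -2.06 (-2.78 to -1.42). Here D544R was 0.82 above WT, so D546R was far below both. The zinc finger genes Zfp800 (-1.83) and Zbtb25 (-1.80), and Dcun1d1 (-1.49), a cullin neddylation factor, followed, Zbtb25 being named after its values were seen. Tnpo1 (-1.48), a nuclear import receptor gene, was the 1 of 43 nuclear pore and import genes called. Others with a mean of at least 1000 were Rnf220 (-1.51), Tshz1 (-1.42), Erbb2ip (-1.24), St7 (-1.18), Senp6 (-1.11), Rdx (-1.10) and Pde3b (-1.06).

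The remaining signal was read against the silent level. Among all tested genes the median density was 1.82 in WT and 2.16 in D546R. The lower genes had a median of 5.18 in WT and 1.77 in D546R. Of the 77 genes 54 had a WT density of at least 2, and over these the share of the WT excess above silent that D546R kept had a median of 31.8%. In 10 of the 54 the D546R density was at or below the 1.11 of Pdk1, which is the silent level or close to it. They include Hoxa7 (15.2 in WT to 0.23 in D546R), Cenpv (5.15 to 1.04), Bahcc1 (3.69 to 0.95), Hoxa3 (3.78 to 1.01) and Eya1 (2.91 to 0.98). Meis1 went from 15.6 to 1.93. At the other end 21 of the 54 stayed above 4 in D546R. Tsc22d2 went from 34.7 to 9.75, Dcun1d1 from 22.1 to 8.54, Nipbl from 17.0 to 8.45 and Jmjd1c from 16.0 to 8.52, each far denser in D546R than the median tested gene. The remaining 23 lower genes had a WT density under 2, a median of 1.19 that was 0.58 in D546R, over a median length of 57.6 kb. Among them were Exph5, Fgf2, Dagla, Cyp3a57 and Ninl, named after their values were seen. Their median ratio in H3K79me3 was 0.01, against -1.68 for the 54.

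**Figure D2:**
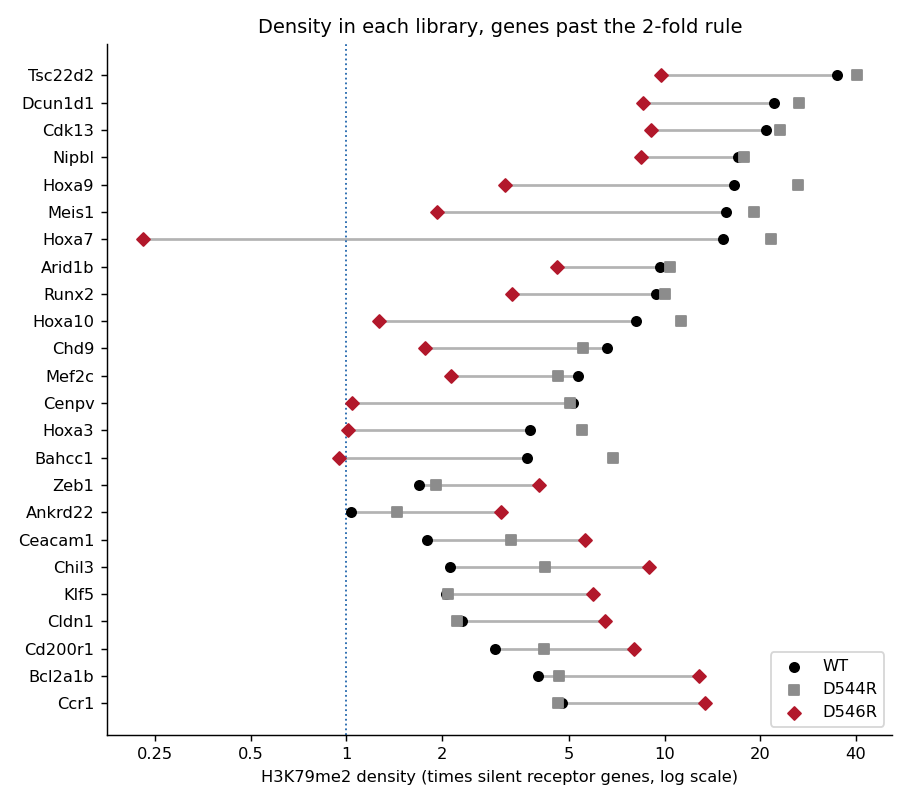
H3K79me2 density of 24 genes past the 2-fold rule in the WT, D544R and D546R libraries, in multiples of the density of silent receptor genes (log scale, dotted line at 1). Meis1, Cenpv and Bahcc1 end below 2 in D546R while Tsc22d2, Dcun1d1, Cdk13 and Nipbl end between 8 and 10.

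The higher genes were short and mostly had few reads. Of the 79 genes 71 had a mean of 100 to 300, as had 5067 of all 8905 tested genes. The median region of the higher genes was 19.8 kb, against 46.1 kb for the lower and 54.1 kb for all tested genes. The 79 genes had a median density of 2.43 in WT, 3.30 in D544R and 6.09 in D546R. Of these 28 had a WT density under 2, while the median of all tested genes in WT was itself under 2, at 1.82. In D544R 68 of the 79 were above 0, with a median log2 ratio of 0.30. Both mutants were set against the same WT library, so a low WT count raises both ratios, and the D544R values are not independent of the D546R values. Chil3 (NM_009892, chr3:105948472-105970482), which encodes a secreted lectin of myeloid cells, had 116.6 normalised counts in WT, 219.1 in D544R and 455.6 in D546R, a ratio of 1.96 (1.38 to 2.57). Ceacam1, an adhesion receptor gene, had 80.2, 139.9 and 233.0 (1.54, 0.78 to 2.31). In these 2 genes D544R lay between the other libraries. In Ccr1, a chemokine receptor gene, it did not: the counts were 101.8, 93.6 and 265.8, a ratio of 1.38 (0.70 to 2.08). The transcription factor gene Klf5 (86.2, 82.3 and 230.4) and the tight junction gene Cldn1 (99.5, 90.5 and 257.9) also had D544R at the WT level. The repressor gene Zeb1, the 1 higher gene with a mean above 1000, had 782.8, 838.2 and 1732, a ratio of 1.15 (0.90 to 1.40). Its paralog Zeb2 lay on the other side, with 3789, 3402 and 1821.

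The myeloid lists are set beside the 0.887% of all genes called higher. Genes named without being an extreme of their list were chosen after their values were seen. Of 27 myeloid surface and adhesion genes 5 were higher and none lower, the median was 0.53 and 25 were above 0, against 57.6% of all genes. The 5 were Ceacam1, Cd33 (1.33), Lilrb4 (1.21), Selplg (1.17) and C5ar1 (1.12). Of 12 granule, protease and oxidase genes 3 were higher: Chil3, the lactoferrin gene Ltf (1.26) and the oxidase subunit gene Cybb (1.22). Their median was 0.49 and 11 of 12 were above 0, although the D544R median of this list was 0.23. Of 21 cytokine and growth factor receptor genes 1 was higher, Il18r1 at 1.21, with a median of 0.35. Of 15 myeloid transcription factor genes 1 was higher, Klf6 (1.10), and 1 lower, Zeb2, with a median of 0.15. Few listed erythroid, lymphoid and mast cell genes passed the minimum, 12, 8 and 3, and none of these was called. The signs of the medians named here held under every scaling tried.

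The growth and survival lists each held few called genes, and among all tested genes 0.887% were higher and 0.865% lower. Of 12 BCL2 family genes 2 were higher and the median was 0.65, the highest of the lists with at least 10 tested genes. Bcl2a1b (NM_007534, chr9:89092111-89102676), a survival gene, had 105.5 normalised counts in WT, 116.2 in D544R and 314.2 in D546R, a ratio of 1.57 (0.92 to 2.24). Bcl2a1d stood at 1.14 and Bcl2a1a at 0.92. These are near-identical copies, and how reads were divided among them is uncertain. Bcl2l1 stood at 0.92, Bcl2 at 0.26 and Mcl1 at -0.04. Of 46 mitosis genes 1 was higher, Cenpl (1.13), and 1 lower, Cenpv, with a median of 0.33. Of 25 cyclin, CDK and E2F genes 2 were higher, E2f2 (1.11) and Mxd1 (1.11), with a median of 0.25 and Cdk6 lowest at -0.93. Of 28 RAS pathway genes none was called and the median was 0.32. Of 26 PI3K, AKT and mTOR genes the 1 called was Pdk1 (-1.13), which in the mouse is the name of a pyruvate dehydrogenase kinase and not of the kinase that activates AKT.

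Several large classes lay at or near the median of all genes. Of 63 splicing factor genes (median 0.14) and 45 DNA repair genes (median -0.001) none was called. Of 137 Zfp zinc finger genes 3 were lower and 3 higher (median 0.11), and of 36 cytosolic ribosomal protein genes 1 was lower, Rpl6 at -1.05 (-2.28 to -0.01). Beside these counts stand 0.865% lower and 0.887% higher among all tested genes. The silent genes of other tissues had a median of -0.01 over 10 tested members, and it turned above 0, as did that of the DNA repair genes, with either set of silent genes as the reference, with size factors over all 6 libraries, with a prior count of 5 and without overlapping regions. The 40 tested protocadherin genes had a median of -0.34, but their regions overlap and share reads, and among those that overlap no other the median was 0.01. None of the HoxB, HoxC and HoxD genes in the table, 29 in all, reached the count minimum. Of 85 lists and name families with a tested member 47 had no gene past the rule.

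**Figure D3:**
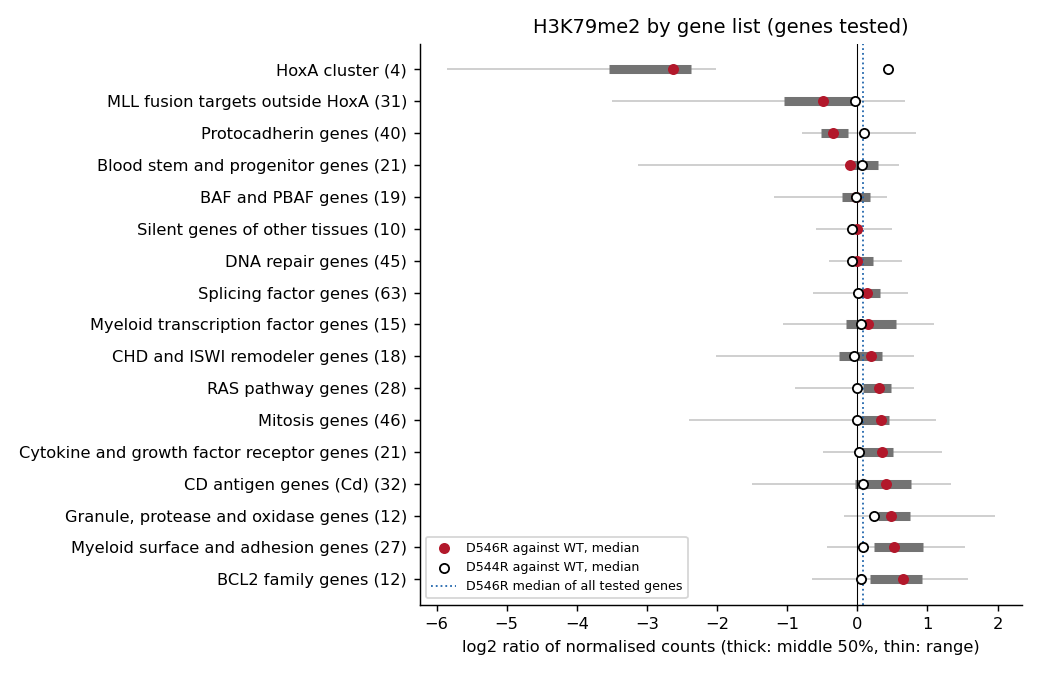
Log2 ratios of H3K79me2 for 17 gene lists with the number of genes tested in brackets: filled points are D546R medians, open points D544R medians, thick bars the middle 50% and thin lines the range in D546R, and the dotted line is the D546R median of all tested genes. The HoxA median is at -2.63 and the BCL2 family median at 0.65, while the D544R medians are near 0 except those of HoxA (0.44) and the granule genes (0.23).

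Density and length were then considered for all tested genes, with density taken from the D544R library, which enters neither side of the ratio. The relation was not one-directional. From the sparsest to the densest decile the median ratios were -0.05, -0.13, -0.13, -0.07, 0.08, 0.19, 0.24, 0.28, 0.25 and 0.16. The densest decile, with densities from 7.16 up, held 31 of the 77 lower genes (3.48% of its 891 genes) and 4 of the 79 higher, its standard deviation was 0.53, and its median was 0.095 above that of all other genes. The D544R medians went from -0.11 to 0.05, but there the same library set the density. By length, the median was highest at 0.27 for 944 regions of 10 to under 20 kb, which held 29 of the higher and 5 of the lower genes. It was -0.07 for 302 regions of 400 kb or more, none of which was called, and the median of regions of 200 kb or more minus that of regions under 20 kb was -0.323. Short regions need dense signal to reach the count minimum, so length and density are tied by the filter.

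**Figure D4:**
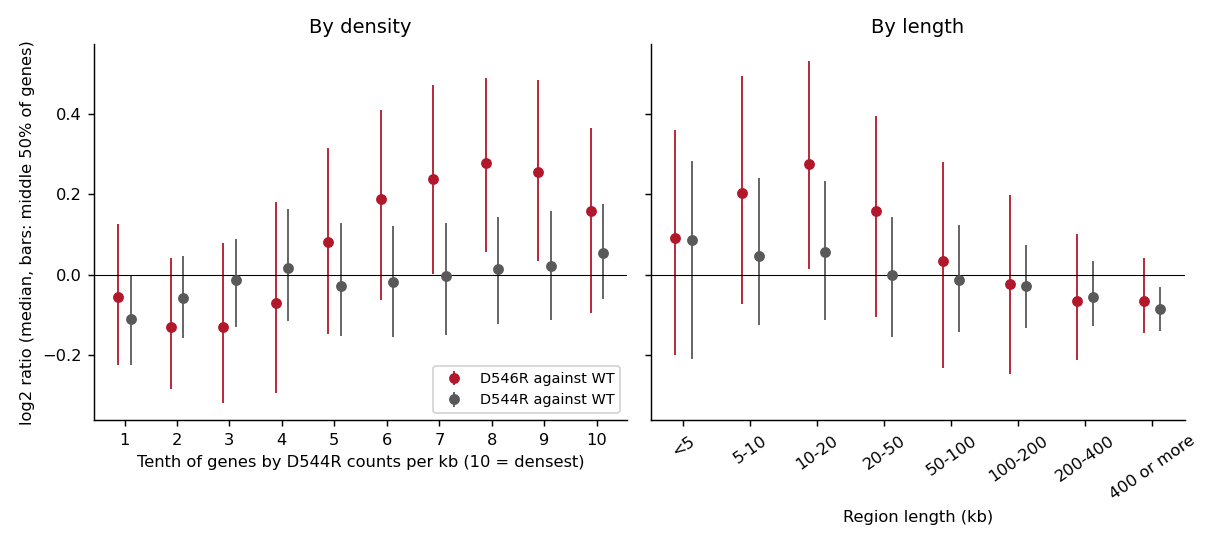
Median log2 ratio (points) and middle 50% of genes (bars) of H3K79me2, D546R against WT in red and D544R against WT in grey, by decile of density in the D544R library and by region length. The red medians climb from -0.13 at low density to 0.28 and drop to 0.16 in the densest, and are highest, at 0.27, for regions of 10 to under 20 kb.

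Length and density were then crossed, in classes chosen after the values were seen. Lower genes were not confined to long or dense regions. Genes under 1.5 times the silent density in D544R included 21 lower and 10 higher among 3691. By length, regions of 20 to under 50 kb held 26 lower and 35 higher among 2841. Those of 50 to under 100 kb held 21 lower and 3 higher among 2478. Genes of 3 to under 6 times the silent density had medians between 0.25 and 0.38 in every length class from 5 kb to under 400 kb, with 14 lower and 34 higher among 1875. In the class of 12 times or more, 22 of 287 genes were lower and none higher, and the median was lowest in long regions. It was 0.09 for 36 genes under 5 kb and -0.05 for 47 genes of 5 to under 10 kb, then 0.16 for 49 genes of 10 to under 20 kb, 0.12 for 96 genes of 20 to under 50 kb, -0.15 for 40 genes of 50 to under 100 kb and -0.68 for 18 genes of 100 to under 200 kb. Genes at least 100 kb long and at least 6 times as dense as silent genes numbered 71. Their median was 0.05 and their middle 50% ran from -0.64 to 0.33, so they were spread widely on both sides of 0, with a standard deviation of 0.68 against 0.12 in D544R. Of these 9 were lower: Meis1, Runx2, Erbb2ip, Arid1b, Nipbl, Arid2, Zeb2, Pde3b and Jmjd1c. Sgk3 (-0.99), Baz2b (-0.94), Skap2 (-0.93) and Cdk6 (-0.93) lay just short of 2-fold. On the other side, named after their values were seen, were the Src family kinase gene Lyn (0.55, 0.39 to 0.71), the ETS factor gene Fli1 (0.40, 0.25 to 0.56), the leukocyte phosphatase gene Ptprc (0.35, 0.18 to 0.51) and Lrrc8d (0.72, 0.53 to 0.92). Lyn had 2227 normalised counts in WT, 2215 in D544R and 3260 in D546R, and Baz2b had 8116, 9109 and 4236. WT and D544R were close in both genes, with densities of 7.71 (Lyn) and 14.2 (Baz2b) in WT, and D546R lay above them in the first and below them in the second.

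**Figure D5:**
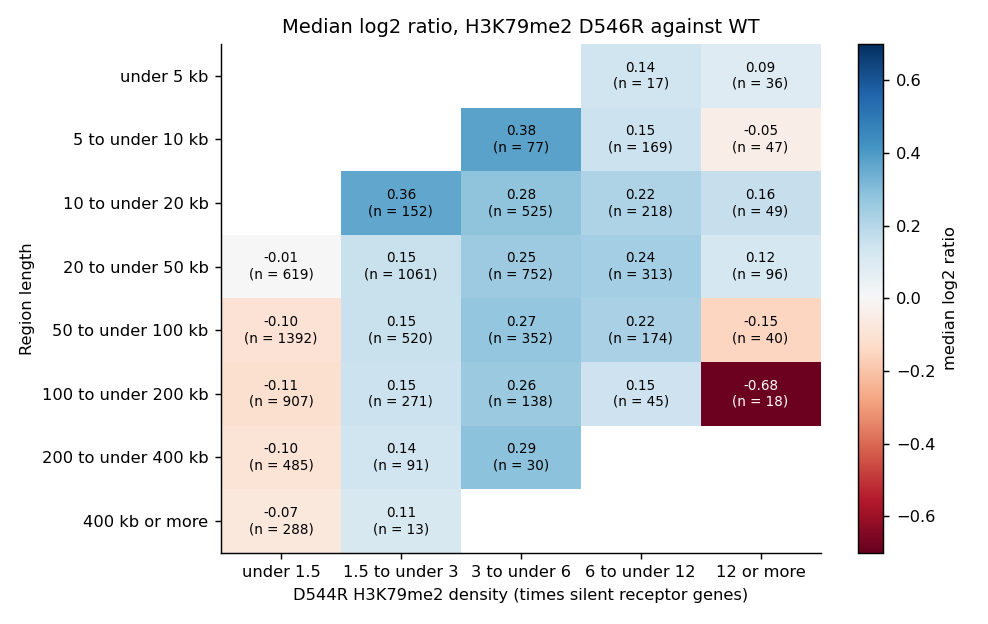
Median log2 ratio of H3K79me2, D546R against WT, by region length (rows) and by density in the D544R library in multiples of silent genes (columns), for classes of at least 10 genes with their number. The column of 3 to under 6 is positive in every class shown, and the lowest value, -0.68, belongs to 18 genes of 100 to under 200 kb at 12 or more.

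Several of the strongly lower genes had tested neighbours near 0. Next to Meis1 the nearest tested genes on either side, Etaa1 and Spred2, lie 924.5 and 903.5 kb away and stood at 0.05 and 0.16. Rbl2, 13.6 kb from Chd9, stood at -0.07. Cenpv lies between Pigl (-0.68) at 9.04 kb and Trpv2 (0.66) at 33.2 kb. Bahcc1 lies between Slc38a10 (-0.07) and Nploc4 (0.42). The 77 lower genes had 58 nearest tested neighbours within 50 kb that did not overlap them. Of these 10 were themselves lower, beside 0.865% of all genes, and of the other 48 a share of 79.2% was below 0, against 42.4% of all genes, with a median of -0.18. The 10 include HoxA genes that are each other's neighbours (2700086A05Rik, Hoxa7, Hoxa9 and Hoxa10), and no count was made without that cluster. The higher genes had 61 such neighbours within 50 kb, of which 4 were themselves higher, beside 0.887% of all genes. Of the other 57 a share of 75.4% was above 0, against 57.6% of all genes, with a median of 0.21. Across genes, pairs less than 10 kb apart had a Pearson correlation of 0.34 over 1185 pairs, which was 0.11 without the HoxA genes, and pairs 1000 to 2000 kb apart had 0.03. The median absolute difference of next neighbours under 50 kb apart was -0.007 from that of the distant pairs. Pairs share libraries and local depth, and this is a description.

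Runs of at least 3 successive tested genes all at -0.5 or below numbered 4, counting genes whose regions do not overlap the one before. One was the HoxA run of 2700086A05Rik, Hoxa7, Hoxa9 and Hoxa10. The others were Smim14 (-1.36), Ube2k (-0.70), Pds5a (-0.88) and N4bp2 (-1.01) over 380.0 kb of chromosome 5, Gm6639 (-0.96), Atp11b (-0.73) and Dcun1d1 (-1.49) over 337.2 kb of chromosome 3, and AI314180 (-0.93), Ptgr1 (-1.53) and Dnajc25 (-1.09) over 225.4 kb of chromosome 4. The D544R medians of these 3 runs were 0.00, 0.17 and 0.04. Runs at 0.5 or above numbered 28, none longer than 4 genes, and they include Ceacam1, Bckdha, Tgfb1 and Hnrnpul1 on chromosome 7 (1.54, 0.74, 0.83 and 0.66) and Trem1, Treml2 and B430306N03Rik on chromosome 17 (0.79, 0.96 and 1.32). Over all tested genes the median ratio was 0.07, the 5th percentile -0.55 and the 95th 0.72. The share of genes past each limit was not counted. The lower and higher numbers of runs, and of the windows below, therefore cannot be set against each other. In 997 windows of 1 Mb with at least 4 tested genes, 8 had a median of -0.5 or below and 17 of 0.5 or above. After HoxA the lowest lay on chromosome 3 at 35 to 36 Mb (-0.96, with Dcun1d1 and Acad9) and on chromosome 9 at 51 to 52 Mb (-0.90, with Fdx1 at -1.10 and Zc3h12c at -1.22). The highest lay on chromosome 17 at 48 to 49 Mb (0.79, the Trem genes) and on chromosome 1 at 173 to 174 Mb (0.75, with Fcer1g, F11r and Cd244). By chromosome the lower genes were most numerous on chromosome 6, with 12 of 507 genes (2.37%, beside 0.865% of all tested genes). Of these 12 genes 5 lie in the HoxA cluster (2700086A05Rik overlaps Hoxa3). The 214 genes of the X chromosome held none, and 4 higher.

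Base composition of the promoters was set beside the calls. For 5195 tested genes RefSeq (GRCm38.p6) gave a single start, and the 250 bases before it were scored for CpG, observed over expected from the C and G content. The share of promoters below 0.4 was 18.0% among these genes, 34.2% of 38 lower genes and 42.9% of 49 higher genes. Among genes at least 3 times as dense as silent genes in D544R it was 7.53% of 1832 genes not called, 5 of 20 lower and 14 of 25 higher genes. The letters GAGGAAGT, a site form of PU.1 (the product of Spi1), were found on either strand in 5 of the 49 higher and none of the 38 lower genes, against 2.60% of tested genes and 2.45% of all single-start promoters in the table. The 5 were Bcl2a1b, Bcl2a1d, B430306N03Rik, Trim12a and Zfp84, and the first pair are near-identical copies. The C/EBP letters TTGCNNAA were in 12.2% of higher, 10.5% of lower and 6.81% of tested genes, and Trim12a held both motifs. These are matches in a short window and not binding sites. Both groups of called genes thus had more CpG-poor promoters than the tested genes. As single examples, 250 bases before the start are printed for 3 lower genes, both starts in the case of Chd9, and 3 higher genes. They run 5′ to 3′ on the gene's strand, with every CpG in capitals.

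Meis1 (lower; GRCm38.p6 chr11:19018970-19019219, minus strand): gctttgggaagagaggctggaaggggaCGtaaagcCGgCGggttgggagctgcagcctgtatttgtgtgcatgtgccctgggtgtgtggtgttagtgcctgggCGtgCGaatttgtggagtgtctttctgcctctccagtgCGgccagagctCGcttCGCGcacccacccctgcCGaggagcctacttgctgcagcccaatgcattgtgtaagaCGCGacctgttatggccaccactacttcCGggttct
Cenpv (lower; GRCm38.p6 chr11:62539262-62539511, minus strand): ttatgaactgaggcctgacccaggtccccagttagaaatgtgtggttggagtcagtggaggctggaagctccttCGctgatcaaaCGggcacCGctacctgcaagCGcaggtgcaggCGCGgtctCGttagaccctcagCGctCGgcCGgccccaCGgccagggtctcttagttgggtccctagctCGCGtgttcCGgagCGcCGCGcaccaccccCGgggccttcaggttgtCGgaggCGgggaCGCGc
Chd9 (lower, upstream start; GRCm38.p6 chr8:90828585-90828834, plus strand): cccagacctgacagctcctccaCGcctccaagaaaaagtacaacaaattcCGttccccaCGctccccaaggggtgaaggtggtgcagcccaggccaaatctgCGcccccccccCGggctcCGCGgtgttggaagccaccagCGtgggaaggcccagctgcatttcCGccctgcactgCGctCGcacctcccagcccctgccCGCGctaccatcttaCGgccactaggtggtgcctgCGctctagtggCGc
Chd9 (lower, downstream start; GRCm38.p6 chr8:90931999-90932248, plus strand): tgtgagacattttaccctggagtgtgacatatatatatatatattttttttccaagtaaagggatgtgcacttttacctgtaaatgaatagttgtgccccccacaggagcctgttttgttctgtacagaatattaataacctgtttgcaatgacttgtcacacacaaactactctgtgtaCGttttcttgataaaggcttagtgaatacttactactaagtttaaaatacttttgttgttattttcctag
Ccr1 (higher; GRCm38.p6 chr9:123968693-123968942, minus strand): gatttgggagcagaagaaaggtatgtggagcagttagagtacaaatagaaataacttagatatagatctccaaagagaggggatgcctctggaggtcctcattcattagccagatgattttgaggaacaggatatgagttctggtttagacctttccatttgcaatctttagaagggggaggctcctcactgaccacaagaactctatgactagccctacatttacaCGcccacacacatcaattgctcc
Ceacam1 (higher; GRCm38.p6 chr7:25477626-25477875, minus strand): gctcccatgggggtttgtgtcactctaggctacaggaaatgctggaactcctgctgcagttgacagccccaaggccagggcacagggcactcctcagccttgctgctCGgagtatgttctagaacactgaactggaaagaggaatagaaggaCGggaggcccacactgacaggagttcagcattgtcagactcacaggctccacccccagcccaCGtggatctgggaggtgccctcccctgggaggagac
Bcl2a1b (higher; GRCm38.p6 chr9:89199023-89199272, plus strand): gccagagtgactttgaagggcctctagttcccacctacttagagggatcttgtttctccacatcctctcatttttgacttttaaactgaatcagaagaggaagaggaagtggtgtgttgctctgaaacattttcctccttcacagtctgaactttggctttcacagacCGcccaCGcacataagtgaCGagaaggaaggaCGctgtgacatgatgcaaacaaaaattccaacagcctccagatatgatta

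In these windows Meis1 had 13 CpG, Cenpv 22 and Chd9 16 at its upstream and 1 at its downstream start, while Ccr1 had 1, Ceacam1 3 and Bcl2a1b 4. These windows were chosen after their values were seen and do not stand for their groups. Observed over expected CpG was 0.595 in Meis1 and 0.819 in Cenpv, and 0.085 to 0.32 in the 3 higher genes. None of the scored lower promoters below 0.4, which were 34.2% of 38, is thus printed. Chd9 has a pair of listed starts, so it was not among the genes scored above.

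The H3K79me3 libraries were separate libraries from the same genotypes and were not used to choose the genes. Their estimated reads per independent fragment were 9.73 in WT and 18.6 in D546R, against 4.05 and 4.78 in H3K79me2. In H3K79me3 1063 regions had no count in WT and 2203 in D546R. Its calls used the interval of the single reads, and its ratios are given without intervals. Of the 77 genes lower in H3K79me2, 71 had a mean of at least 100 in H3K79me3, of which 56 were below 0 and 15 above. In all, 35 were also at least 2-fold lower there and 2 were at least 2-fold higher. That is 45.5% of the H3K79me2 calls and 3.63% of the 965 genes called lower in H3K79me3, which were 8.92% of its 10824 tested genes. Of the 79 higher genes 63 had that mean in H3K79me3, 38 of them above 0 and 25 below. In this direction 13 genes were shared, 16.5% of the 79 and 1.73% of the 751 called in H3K79me3 (6.94%), and 5 of the 79 were called lower there. Meis1 (-3.12 in H3K79me2 and -2.64 in H3K79me3), Tsc22d2 (-1.94 and -3.44) and Chd9 (-2.02 and -1.72) were low in both marks. Cenpv (-2.40 and -0.45) and Bahcc1 (-2.06 and -0.35) were low in H3K79me2 and much nearer 0 in H3K79me3. Chil3 (1.96 and 1.84), Ccr1 (1.38 and 2.12) and Cldn1 (1.37 and 2.60) were high in both marks, whereas Zfp84 stood at 1.36 and -2.12. No test of a difference between marks was possible.

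At the 2-fold limit the genes just inside and just outside were alike. Lpxn (-1.02), Mroh1 (-1.02) and N4bp2 (-1.01) were the last genes called lower, and Fcho2 (-0.999), Sptbn4 (-0.99) and Ndufaf6 (-0.99) the first not called. On the other side Fignl1, Pcsk7 and Fam150a were called at 1.00 and Anxa1, Ddx58 and E2f8 were not, also at 1.00. The reference genes Gapdh (0.02, -1.09 to 1.03) and Actb (0.85, -0.16 to 1.85) had mean normalised counts of 82.7 and 83.7. These are below the minimum, so neither gene was among those tested. Their fragment intervals include 0, and by these their change is not resolved at this depth. The interval of the single reads excluded 0 for Actb (0.40 to 1.31) but not for Gapdh (-0.47 to 0.48).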

How the data were processed

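The authors deposited whole-number counts of reads for 24012 gene regions without normalising them. Per the file headers a region runs from 2 kb before the start to the end of transcription. The submitters' processing notes name the mm9 build, bedtools, Bowtie and DESeq, without versions. Whether duplicate reads were removed is not stated there. Per the labels, reads of several runs were merged. Starts in the table count from 0 and are printed from 1. For genes matched to RefSeq, distances between the ends of 3150 neighbouring pairs on opposite strands were the same as in GRCm38 in 96.0% and in none differed by 2000 bases, so the added 2 kb lie on the low-coordinate side of both strands.

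Size factors were medians of ratios over the 3 H3K79me2 libraries (1.35, 0.972 and 0.764 for WT, D544R and D546R). Reads per independent fragment, estimated from 4591 autosomal regions under 5 kb with or without a count, were 4.05, 3.26 and 4.78. Uneven signal raises this estimate, so fragment intervals are wide. Intervals were exact conditional binomial ones at 95% and cover counting error only. The code was tested on simulated data. The genes in the report, the 48 gene lists, the 38 name families and the rules were chosen with earlier results of these data known. Named genes were the 12 lowest and 12 highest called genes without clone or predicted names, called genes with a mean of at least 1000, list extremes, the 5 densest long genes, members of the 5 longest runs and the 3 lowest and 3 highest windows, the 3 genes on either side of the 2-fold limit, and Hoxa9, Hoxa10, Meis1, Gapdh and Actb. Other genes were named after their values were seen. Scripts used Python 3.11.15, R 4.3.3 and edgeR 4.0.16, the last for TMM factors only. A few genes that the rule covers are not reported here.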

Additional observations from a re-analysis of the deposited data

How the results depend on the processing

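No paired analysis was possible because each group had 1 library, and for the same reason no replicate could be left out. The count minimum had the widest effect. With no minimum 1963 genes were lower and 1167 higher, the spread was 1.030, the densest decile lay 0.245 above the rest, long regions -0.039 from short ones, next neighbours differed by -0.097 from distant pairs, the kept excess was -4.40%, the runs numbered 224 lower and 129 higher, and 6 lists had no call. With a mean of 300 there were 33 lower and 8 higher genes, 2 lower and 4 higher runs, and a density difference of 0.046. With receptor genes as the reference 50 genes were lower, 179 higher, and 73 runs were higher, and with total counts 16 runs were higher. Without overlapping regions 9 higher runs were left and the density difference was 0.140. At 1.5-fold 379 genes were lower and 792 higher. Density from WT H3K79me2 gave 0.062, and regions of 100 kb or more against those under 50 kb gave -0.242. None of these results changed sign apart from the kept excess with no minimum. Over the 239 named genes, 2294 of 2372 alternative values kept their side of the 2-fold rule. Of the rest 41 were no longer past it and 37 newly were. Reversal of sign was looked for only in called genes, where it numbered 0. Among genes not called it was not counted, and Gapdh went from 0.015 to -0.050 with total counts. The reference of silent genes of other tissues was chosen after seeing the data. Of the 79 higher genes 73 had under 300 WT counts, and with the fragment interval 79 stayed called, against 76 of the 77 lower. No value here separates the genotype from the single culture or library it was read in.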
